A study of Homo sapiens with 12 samples.

Results

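Ofatumumab (OF) was compared with an isotype control in TMD8, a human cell line of diffuse large B-cell lymphoma (DLBCL) of the activated B-cell subtype. Both OF libraries and both isotype libraries of TMD8 were used, which is 4 of the 12 RNA sequencing libraries of the series. The cells were incubated for 4 h with 20 µg/mL of OF or of a human IgG1 isotype antibody. The line had been split and grown as separate cultures for a week beforehand. Libraries with the same replicate number were taken to share a culture, which the labels do not say in words. The 2 TMD8 libraries treated with rituximab (R) entered the same fit, where they add to the estimate of the spread, and were compared with OF. The OF and isotype libraries of U2932, another line of the same subtype, were used to show where the response differed. The series was made to compare the early effects of both antibodies on gene expression in lines in which they combined differently with chemotherapy. Both are established lines grown in medium with heat-inactivated serum, the labels name no other cells in the cultures, and each line stands for 1 tumor. Where the culture is a block, the p-values below measure the spread left between libraries after the difference between the cultures is taken out. They do not measure the spread between tumors.

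OF is a human IgG1 monoclonal antibody, and R is a chimeric one. Both bind CD20, a membrane protein of B cells encoded by MS4A1, at different epitopes. CD20 sits close to the B-cell receptor, whose signal runs through SYK, BTK and PLCG2 to calcium, NF-kB and the MAP kinases, and cross-linking of CD20 by antibody is known to move it into lipid rafts and to raise calcium. TMD8 carries chronically active B-cell receptor and NF-kB signals, as the activated B-cell subtype is known for. Expression of genes after a few hours mostly reports such signals, together with stress responses and the sterol, interferon and cell cycle programs that follow them.

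The 4 libraries held 15440226 and 16088339 counts with OF and 18377047 and 27110612 counts with isotype. The OF and isotype libraries of culture 2 stood apart from the other 4 TMD8 libraries, with 7.16 and 6.5% of counts on ribosomal protein genes (10.0 to 10.8% in the others) and 3.73 and 3.99% on mitochondrial genes (5.70 to 6.23%). Deviations from the group means correlated at 0.69 between OF and isotype libraries of the same culture, and at 0.22 and 0.23 between R and either of them. The R library of culture 2 did not share the shift, with 10.0% ribosomal protein and 5.70% mitochondrial counts. A difference between cultures and one between library preparations cannot be told apart here. All 8 B-cell markers were detected in each library, and their summed level was 4000 to 4480 CPM (read counts scaled to the size of the library) with isotype and 5350 to 5530 CPM with OF. The 8 markers of the activated B-cell subtype summed to 2250 to 2440 and 2750 to 2810 CPM. Of the 10 T and NK cell markers 5 had no count in the 4 libraries, CD3D, CD3G and GNLY among them, and the summed level (21.1 to 26.2 CPM with isotype and 17.7 to 18.5 CPM with OF) was mostly CD5. Of the 9 monocyte and macrophage markers 4 had no count, and the sum was 3.57 to 6.36 and 4.16 to 5.14 CPM, mostly VCAN. The 9 fibroblast and epithelial markers summed to 17.9 to 32.1 and 18.7 to 29.8 CPM, mostly CDH1, and 1 of them was called, DCN, which had 0.823 and 0.401 CPM with isotype and 0.198 and 0 CPM with OF. All 7 erythroid and platelet markers were at 0. In bulk RNA, fewer cells of a kind and less RNA per cell cannot be told apart.

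Promoters are shown first for the ER chaperone, sterol and interferon genes, whose lists had the largest shares of members called in 1 direction. The sequences are from RefSeq (GRCh38.p14), run 5′ to 3′ on the strand of the gene, and end before the first annotated start. Letters were searched on both strands in the 250 bases before the RefSeq start. Chaperones of the endoplasmic reticulum (ER) are known to be induced through the ER stress element, CCAAT followed after 9 bases by CCACG, which was found in 22 of 27303 promoters (0.0806%), in 14 of the 10141 genes tested that had a promoter, in 6 of the 554 called higher with OF and in 0 of the 472 called lower. In the ER chaperone list below 6 of 23 promoters held it, those of HSPA5, XBP1, CALR and CRELD2, which were called higher, and of HSP90B1 and CANX, which were not called. CRELD2, HSP90B1 and CANX were named after their values were seen. The capitals mark it in the following promoters.
HSPA5 (chr9:125241344-125241593, minus strand): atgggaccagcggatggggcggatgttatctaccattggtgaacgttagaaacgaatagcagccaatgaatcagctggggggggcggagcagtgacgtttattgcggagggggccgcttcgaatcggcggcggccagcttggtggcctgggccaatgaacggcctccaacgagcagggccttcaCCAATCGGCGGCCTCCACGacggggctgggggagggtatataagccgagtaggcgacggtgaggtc
XBP1 (chr22:28800598-28800819, minus strand): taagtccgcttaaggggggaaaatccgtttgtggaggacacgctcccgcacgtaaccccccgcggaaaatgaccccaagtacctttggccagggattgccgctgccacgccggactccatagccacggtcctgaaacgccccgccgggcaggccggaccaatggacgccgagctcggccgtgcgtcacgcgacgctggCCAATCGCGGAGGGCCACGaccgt
CALR (chr19:12938359-12938577, plus strand): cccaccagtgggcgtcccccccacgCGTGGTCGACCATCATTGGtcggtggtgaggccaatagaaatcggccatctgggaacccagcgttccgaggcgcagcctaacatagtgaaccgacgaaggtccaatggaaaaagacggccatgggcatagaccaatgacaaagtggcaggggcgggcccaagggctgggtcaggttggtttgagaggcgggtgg

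Genes of cholesterol synthesis are known to need the factor NF-Y at a CCAAT box beside the sterol element. The core of the sterol element, searched as TCACNCCAC, was found in only 1 of 23 promoters of the cholesterol list, and in 0.897% of those of genes tested. The letters CCAAT, which are also part of the ER stress element, were found in 33% of all promoters, in 35.3% of those of genes tested, in 40.1% of those of genes called higher and in 33.9% of those of genes called lower. In the cholesterol list 15 of 23 promoters held them and in the ER chaperone list 19 of 23. The promoters of HMGCS1 and MSMO1, the sterol genes with the smallest p-values, are shown with CCAAT or its reverse complement in capitals.
HMGCS1 (chr5:43313513-43313662, minus strand): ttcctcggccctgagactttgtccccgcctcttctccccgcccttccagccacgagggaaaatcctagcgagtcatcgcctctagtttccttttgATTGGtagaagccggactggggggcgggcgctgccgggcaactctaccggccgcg
MSMO1 (chr4:165327419-165327622, plus strand): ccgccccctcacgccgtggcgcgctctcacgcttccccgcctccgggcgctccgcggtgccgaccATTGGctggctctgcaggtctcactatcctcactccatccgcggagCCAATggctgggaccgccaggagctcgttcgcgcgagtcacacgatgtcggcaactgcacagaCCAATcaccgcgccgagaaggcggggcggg

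Genes induced by interferon are known to be driven by the interferon-stimulated response element, searched here as GAAANNGAAA. It was found in 3.07% of all promoters, in 2.66% of those of genes tested, in 1.08% of those of genes called higher and in 5.72% of those of genes called lower. Of the 28 promoters of the interferon-stimulated list 16 held it, and so did 11 of the 15 of members that were called, all lower. IFIH1, the member with the smallest p-value, and IFIT1 and IFIT3, chosen after their values were seen, are shown with the matches in capitals. A match is a run of letters and was not tested for binding.
IFIH1 (chr2:162318704-162318934, minus strand): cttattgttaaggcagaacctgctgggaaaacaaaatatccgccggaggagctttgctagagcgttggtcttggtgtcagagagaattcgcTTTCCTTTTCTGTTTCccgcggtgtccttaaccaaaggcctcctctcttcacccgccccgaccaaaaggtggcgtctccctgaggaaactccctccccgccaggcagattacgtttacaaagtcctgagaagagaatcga
IFIT1 (chr10:89392373-89392545, plus strand): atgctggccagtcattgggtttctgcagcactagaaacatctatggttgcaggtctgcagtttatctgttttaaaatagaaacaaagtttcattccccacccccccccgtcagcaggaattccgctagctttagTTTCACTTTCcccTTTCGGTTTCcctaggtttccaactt
IFIT3 (chr10:89327747-89327893, plus strand): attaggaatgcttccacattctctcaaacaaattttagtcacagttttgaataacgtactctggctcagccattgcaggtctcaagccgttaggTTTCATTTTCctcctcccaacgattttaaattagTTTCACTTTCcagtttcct

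Of the 58884 annotated genes, 14227 had enough counts to be tested in TMD8. With the culture as a block, OF raised 735 of them (5.17%) and lowered 652 (4.58%) against isotype by edgeR's quasi-likelihood test, where a call needed an adjusted p below 0.1 together with a difference of 1.5-fold or more. All 735 and all 652 changed the same way in both cultures, and both OF libraries lay above both isotype libraries in 673 of the 735 and below them in 627 of the 652. The calls were made from these same cultures and favor genes that agree between them, so this agreement is no separate evidence. The change was at least 2-fold for 225 and 247 genes and at least 4-fold for 13 and 34, and the median over all genes tested was 0.00 on the log2 scale. Without the replicate block, where the difference between the cultures counts as error, 67 genes (0.471%) were called higher and 49 (0.344%) lower, and the smallest adjusted p went from 7.8e-04 to 0.0621. The median standard error of a log2 change was 0.17 with the block and 0.25 without it.

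The numbers of calls rested on few libraries. Without the OF library of culture 1 266 genes were called higher and 164 lower, without that of culture 2 195 and 138, and without the isotype library of culture 1 446 and 374. Leaving out the isotype library of culture 2 gave 1063 and 754, and leaving out either R library gave 1038 and 1006 or 1050 and 998. A further fit took culture 1 alone against the spread of the R libraries, without the libraries that stood apart. It left 1 OF and 1 isotype library, so the contrast had no replicates. Counts given below for fits without both libraries of culture 2 carry this limit. In every one of these fits all 1387 genes kept the sign of their change. The genes were picked from these same libraries and changed the same way in both cultures, so a kept sign is no separate evidence. Called genes had a median GC content of 53.2% where higher and 45.4% where lower, against 48.5% over all genes tested. A correction of each library for GC content gave 713 higher and 624 lower, and 1174 of the 1387 genes were still called in the same direction. Scaling by library size alone, which moved the median of all genes to -0.07, changed the share of calls that were higher from 53% to 39.1%.

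**Figure D1:**
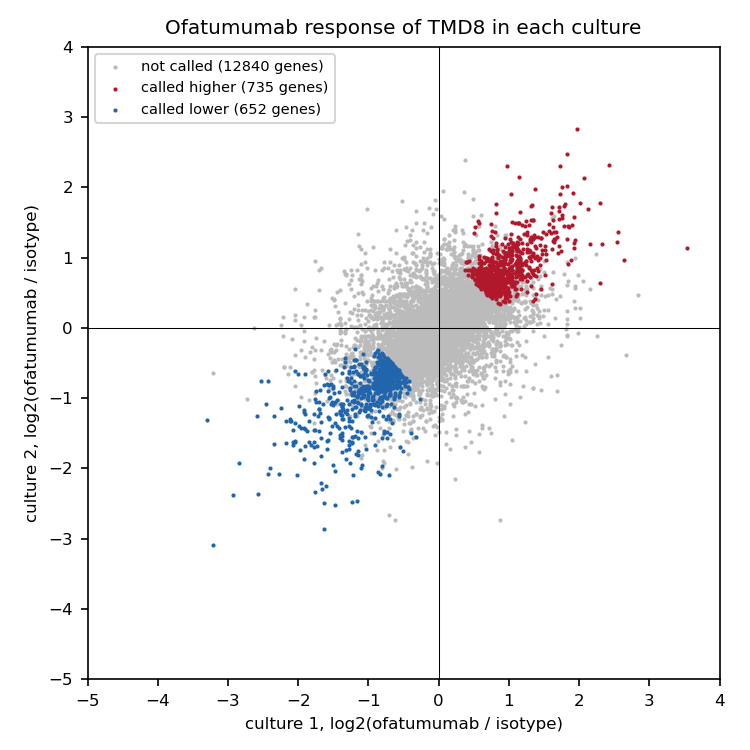
Change of each of the 14227 genes tested between OF and isotype in TMD8, as log2 ratio in culture 1 (x axis) and in culture 2 (y axis). One point is 1 gene, with the 735 genes called higher in red, the 652 called lower in blue and the others in grey. All called genes lie in the quadrants where both cultures moved the same way, which the call from these same cultures favors.

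The gene with the smallest p-value was RGS13, a regulator that ends signals of G-protein coupled receptors and is known from germinal centre B cells. It lies on chromosome 1 from 192636138 to 192660306 (GRCh38, plus strand). Its level was 30.3 and 21.7 CPM in the isotype libraries of cultures 1 and 2 and 164 and 109 CPM in the OF libraries, a log2 change of 2.38 (SE 0.14, adjusted p = 7.8e-04). The OF libraries were several times higher in both cultures. SGK1, a kinase activated downstream of PI3K, had 15.7 and 10.7 CPM with isotype and 59.4 and 40.7 CPM with OF (log2 change 1.92, SE 0.13, adjusted p = 7.9e-04). CD1C, which presents lipid antigens, had 58.5 and 39.5 CPM with isotype and 246 and 173 CPM with OF, a log2 change of 2.10 (SE 0.16). For both genes culture 1 was the higher one under either antibody, so the difference between the cultures was carried along and the ratio was close to the same in each.

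CDK5R1, the activating subunit of CDK5, went from 32.5 and 30.4 CPM to 114 and 104 CPM (log2 change 1.79, SE 0.13), and SPR, which makes the cofactor tetrahydrobiopterin, from 6.31 and 7.46 CPM to 25.7 and 25.9 CPM (1.90, SE 0.15). KCNN4, the calcium-activated potassium channel of lymphocytes, had 31.2 and 32.9 CPM with isotype and 97.5 and 84.9 CPM with OF (1.5, SE 0.14). In these 3 genes the cultures differed little and the groups did not overlap. CCNI, a cyclin, rose from 53.9 and 62.3 CPM to 176 and 205 CPM. FUT8, the core fucosyltransferase and a marker of the activated B-cell subtype, rose from 55.2 and 44.1 CPM to 141 and 129 CPM. DUSP2, a phosphatase that switches off MAP kinases in lymphocytes, rose from 39.8 and 31.8 CPM to 96.4 and 88.4 CPM. Their log2 changes were 1.72, 1.45 and 1.38.

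Among genes that fell, SLFN5 (chromosome 17 from 35243036 to 35273655, plus strand), a Schlafen family gene induced by interferon, had the smallest p-value. It had 76.7 and 78.4 CPM with isotype and 20.2 and 21.6 CPM with OF, a log2 change of -1.89 (SE 0.13, adjusted p = 7.9e-04). ZBTB43, a zinc finger factor, fell from 72.9 and 64.4 CPM to 20.6 and 20.3 CPM (log2 change -1.74, SE 0.13), and CYP1A1, a cytochrome induced by the aryl hydrocarbon receptor, from 79.4 and 83.2 CPM to 23.9 and 25.8 CPM (-1.71, SE 0.15). In all of them both OF libraries were below both isotype libraries by a wide margin, and the cultures were alike. CNR1, the cannabinoid receptor, fell from 68.6 and 75.7 CPM to 27.8 and 32.2 CPM. SLAMF7, a surface receptor of B and plasma cells, fell from 99.8 and 71.2 CPM to 37.5 and 31.5 CPM. Their log2 changes were -1.27 and -1.30. The zinc finger genes ZNF426, ZNF543 and ZNF260 fell by 1.35, 1.24 and 1.09 on the log2 scale, and C1orf74 by 1.67. C12orf60 (-1.92) and ZNF775 (-1.72) were among the 5 largest falls at a mean of at least 5 CPM, from isotype levels of 9.54 and 6.42 CPM and of 15.4 and 11.8 CPM. MT-ND6 fell from 453 and 444 CPM to 180 and 194 CPM, but it lies on the other strand from the other mitochondrial genes, and whether strand was used in counting is not stated in the sources used here, so its reads may not be its own. The other 12 protein genes of the mitochondrial genome were not called.

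**Figure D2:**
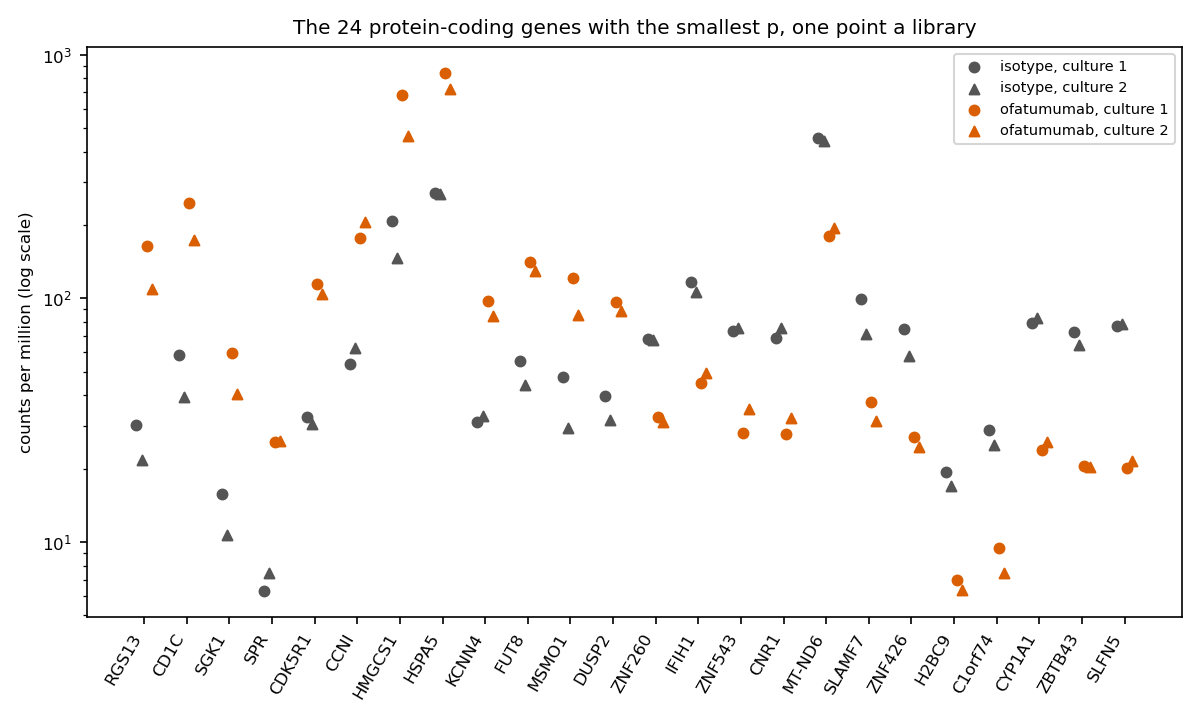
Level in CPM, on a log axis, of the 24 protein-coding genes with the smallest p-values, 12 higher and 12 lower with OF, in each isotype library (grey) and each OF library (orange). Circles are culture 1 and triangles culture 2. In each gene the 2 OF libraries lie on one side of the 2 isotype libraries.

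Of these 24 genes 23 were also called without the replicate block, at adjusted p-values of 0.0621 to 0.095, and MSMO1 had 0.122 there. Among all 172 genes named by the rule, 159 were called with the block and 50 without it.

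The antibody's target was itself measured. MS4A1, the gene of CD20, had 1300 and 891 CPM with isotype and 1920 and 1420 CPM with OF, a log2 change of 0.62 (SE 0.17, adjusted p = 0.064, and 0.384 without the replicate block). Within each culture the OF library was higher, and across cultures the groups did not overlap. Of the 16 surface antigens tested 3 rose and 2 fell, and the other 11 were not called. Over all genes tested 5.17% were called higher and 4.58% lower. CD79A, the signalling chain of the B-cell receptor, rose from 316 and 329 CPM to 553 and 463 CPM (0.65, SE 0.15), and after the GC correction its change was 0.52 and no longer called. With scaling by library size alone neither MS4A1 (0.55) nor CD79A (0.58) reached 1.5-fold, and MS4A1 lost its call when any single one of the 4 OF and isotype libraries was left out, at adjusted p-values of 0.259 to 0.598. TNFRSF13C, the receptor of the survival factor BAFF, had 45.6 and 79.7 CPM with isotype and 82.0 and 147 CPM with OF (0.87, SE 0.18), and here the groups hardly came apart, since isotype culture 2 was nearly as high as OF culture 1. The costimulatory ligands moved the other way. CD86 fell from 134 and 82.2 CPM to 51.4 and 33.6 CPM (-1.34, SE 0.16) and CD80 from 81.4 and 56.1 CPM to 40.2 and 33.6 CPM (-0.88, SE 0.13). Of these 5 genes none was called without the block. Both called B-cell markers, MS4A1 and CD79A, are in this list, and the summed B-cell markers given above moved with it.

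Of the 25 genes of B-cell receptor signalling tested 5 rose and 0 fell, against 5.17% and 4.58% of all genes. PTPN6, the phosphatase SHP-1 that restrains the receptor, rose most, from 185 and 232 CPM to 502 and 460 CPM (log2 change 1.21, SE 0.16, adjusted p = 0.00651). MALT1, which links the receptor to NF-kB, changed by 0.62 (SE 0.12), and PLCG2, the phospholipase of the pathway, by 0.64 (SE 0.16). Without the block 1 of the 5 was called. The median of the list was 0.23, against 0.00 over all genes tested.

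The cholesterol list, enzymes of sterol and fatty acid synthesis and other targets of the SREBP factors, had the largest share of members called higher among the 40 lists. Of 30 tested 16 rose and 1 fell, with a median log2 change of 0.63 (0.59 within each culture). HMGCS1, which makes HMG-CoA, rose from 207 and 146 CPM to 680 and 465 CPM (1.70, SE 0.15, adjusted p = 0.00196). MSMO1, a sterol demethylating oxidase, rose from 47.4 and 29.5 CPM to 121 and 85.4 CPM (1.44, SE 0.14). In both genes the OF libraries were higher than both isotype libraries, and culture 1 was above culture 2. SQLE, SC5D and MVD, later and earlier enzymes of the same pathway, changed by 1.08, 0.84 and 0.77. The member that fell was ABCG1, which exports cholesterol and is a target of the LXR receptors (log2 change -1.90, adjusted p = 0.0423), named after its values were seen. Without the block 3 rose and 0 fell, without the OF library of culture 2 7 and 0, without the isotype library of culture 2 14 and 1, and without both 15 and 1. The GC correction left 16 and 1.

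The list of ER chaperones and the unfolded protein response had 11 of 24 higher, 0 lower and a median of 0.41. HSPA5, the chaperone BiP that senses unfolded proteins in the ER, had 271 and 268 CPM with isotype and 841 and 725 CPM with OF (log2 change 1.53, SE 0.15, adjusted p = 0.00279). XBP1, the factor that drives the response and plasma cell secretion, rose from 25.4 and 16.8 CPM to 53.4 and 37.6 CPM (1.12, SE 0.14). In HSPA5 the groups lay far apart and the cultures close together, whereas in XBP1 culture 1 was higher under both antibodies. The cochaperones SDF2L1, DNAJC3 and DNAJB11 rose by 1.04, 0.77 and 0.78, HERPUD1, which takes part in the disposal of ER proteins, by 0.76, and CALR, a lectin chaperone, by 0.68. The promoters of HSPA5, XBP1 and CALR shown above held the ER stress element. Without the block 1 rose, without the OF library of culture 2 4, without the isotype library of culture 2 9 and without both 10, and in none of these fits did a member fall.

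In contrast, targets of ATF4, the factor of amino acid and ER stress, moved both ways, with 6 of 25 higher and 4 lower. ATF4 itself fell from 399 and 283 CPM to 213 and 150 CPM (log2 change -0.91, SE 0.15), and its relative ATF5 from 656 and 660 CPM to 470 and 372 CPM (-0.65, SE 0.15). DDIT4, an inhibitor of mTORC1, rose by 1.19, the amino acid carriers SLC7A1 and SLC38A2 by 0.94 and 0.59, and the folate enzyme MTHFD2 by 0.68. Of the 20 aminoacyl-tRNA synthetases tested none was called by edgeR with the block (1 was called higher without the isotype library of culture 2), and the highest expressed, KARS1 and QARS1, had log2 changes of -0.07 and 0.08 (SE 0.15 and 0.14). Of 26 heat shock genes and cytosolic chaperones 4 rose and 0 fell, namely HSPB1 (0.77), HSPA4L (0.64), BAG3 (0.91) and HSPH1 (0.62), and none of them was called without the block. Of 16 targets of NRF2, the antioxidant factor, 1 rose, HMOX1 (0.74), and 1 fell, the cystine carrier SLC7A11 (-0.64). This was near the shares over all genes of 5.17% and 4.58%. Neither was called without the block, and SLC7A11 was not called after the GC correction.

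Interferon-stimulated genes had the largest share of members called lower among the 40 lists. Of 37 tested 21 fell and 0 rose, with a median log2 change of -0.75 (-0.77 in culture 1 and -0.60 in culture 2), and 34 of the 37 had a value below 0. IFIH1, the cytosolic sensor of double-stranded RNA also called MDA5, had 117 and 106 CPM with isotype and 44.8 and 49.6 CPM with OF (-1.24, SE 0.13, adjusted p = 0.00419). OAS2, which makes the activator of RNase L, fell from 169 and 162 CPM to 78.7 and 85.3 CPM (-1.01, SE 0.13), and XAF1, a proapoptotic interferon target, from 104 and 92.7 CPM to 36.5 and 44.6 CPM (-1.29, SE 0.16). In each of them the OF libraries were below both isotype libraries. IFI44L, OASL and DDX60 had changes of -1.75, -1.43 and -0.96. IFIT1 and IFIT3, whose promoters are shown above, changed by -1.26 and -1.23. The list had 8 genes lower without the block, 12 without the OF library of culture 2, 24 without the isotype library of culture 2, 22 without both and 21 after the GC correction, and none higher in any of these fits.

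Of 38 replication-dependent histone genes tested 15 fell and 0 rose, against 4.58% and 5.17% of all genes, with a median of -0.60. H2BC9 fell from 19.3 and 17 CPM to 6.99 and 6.37 CPM (log2 change -1.44, SE 0.16), H2AC6 from 313 and 210 CPM to 135 and 102 CPM (-1.13, SE 0.15) and H2BC8 from 57.6 and 51.7 CPM to 28.1 and 24.3 CPM (-1.06, SE 0.14). H4C8, H4C4 and H2BC21 had changes of -0.86, -1.68 and -0.79. These genes pack DNA made in S phase, and they are near-identical copies of one another whose reads the counting could divide, so single members are uncertain. Most of their RNA has no poly(A) tail. Without the block 3 fell, without the OF library of culture 2 5, without the isotype library of culture 2 19 and without both 17. Of 35 DNA replication genes 1 was called, UHRF1 (0.79), and of 35 genes of G2 and mitosis none, with MKI67 at 0.17 (SE 0.22) and TOP2A at -0.19 (SE 0.16). The median of the G2 and mitosis list was -0.15, and 24 of its 35 members were below 0. Without the isotype library of culture 2 the list had 1 gene higher and 6 lower, without both libraries of culture 2 1 and 4, and with scaling by library size alone 0 and 3.

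Of 21 cyclins, CDKs, CDK inhibitors and regulators of G1 6 rose and 0 fell, both drivers and brakes. MYC rose from 125 and 139 CPM to 299 and 304 CPM (log2 change 1.19, SE 0.14, adjusted p = 0.005) and CCNE2, the cyclin of S phase entry, from 17.6 and 13.4 CPM to 35.2 and 29.6 CPM (1.07, SE 0.13). CDKN2C, an inhibitor of CDK4 and CDK6, rose from 13.4 and 11 CPM to 25.9 and 26.8 CPM (1.12, SE 0.16), and CDKN1A, the inhibitor p21, from 55.9 and 63.4 CPM to 101 CPM in both OF libraries (0.76, SE 0.13). In all of them the groups were apart. CCND2 and CCNE1 rose by 0.79 and 0.65. Of 21 targets of p53, to which CDKN1A also belongs, 3 rose and 1 fell, PHLDA3 (-1.16). Of 22 FOXO and quiescence genes 4 rose, namely KLF2 (0.89), SOD2 (0.76), CCNG2 (0.77) and CDKN1A. Beside these counts, 5.17% of all genes were called higher and 4.58% lower.

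Immediate early genes and the inhibitors that they induce report MAP kinase and calcium signals. Of 20 tested 6 rose and 2 fell. KLF6 rose from 64.2 and 67.5 CPM to 153 and 143 CPM (log2 change 1.17, SE 0.13), IER2 from 25.1 and 35.1 CPM to 61.1 and 64.2 CPM (1.07, SE 0.15) and EGR1 from 4.99 and 7.06 CPM to 11.1 and 12.9 CPM (1.00, SE 0.18). ZFP36, which degrades cytokine mRNA, rose by 0.89 and ATF3 fell by 0.64. Of 11 DUSP, SPRY and SPRED genes, which dampen ERK and the other MAP kinases, 5 rose and 1 fell. DUSP5 went from 93.5 and 95.6 CPM to 192 and 211 CPM (1.09, SE 0.13), SPRED1 from 7.13 and 10.2 CPM to 20.6 and 22 CPM (1.29, SE 0.21), and DUSP7 and SPRED2 changed by 1.03 and 1.08, while DUSP16, an inhibitor of JNK, was at -0.92 (SE 0.28, adjusted p = 0.0831). In DUSP5 and SPRED1 the OF libraries of both cultures were about as high as each other. Of 30 genes of the JNK and p38 cascade 2 rose and 2 fell, near the background shares of 5.17% and 4.58%. These were MAP3K6 (1.80) and TAOK2 (0.60), and MAP3K1 (-0.68) and GADD45G (-1.18), of which MAP3K6 was measured at 0.329 and 0.535 CPM with isotype.

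Of 16 regulators of G-protein signalling 6 rose and 0 fell, against 5.17% and 4.58% of all genes. Beside RGS13, RGS14 went from 12 and 12.9 CPM to 33.0 and 31.5 CPM (log2 change 1.37, SE 0.14, adjusted p = 0.00308), and RGS2, RGS1, RGS16 and RGS19 had changes of 0.97, 1.09, 0.74 and 0.62. In the list of KLF2, S1P and trafficking receptors 8 of 22 rose and 2 fell. The 2 that fell were CXCR5, the receptor that draws B cells into follicles (71.2 and 98.7 CPM to 36.3 and 41.0 CPM, log2 change -1.12, SE 0.14), and CCR7, which draws lymphocytes to lymph nodes (39.4 and 57.0 CPM to 25.6 and 29.1 CPM, -0.80, SE 0.14). The integrin chains ITGA4 and ITGB1, which form the receptor VLA-4, rose from 76.4 and 82.0 CPM to 144 and 175 CPM (1.01, SE 0.14) and from 89.2 and 80 CPM to 139 and 128 CPM (0.66, SE 0.13). KLF2, a quiescence and homing factor, had 30.1 and 30.3 CPM with isotype and 51.1 and 61.2 CPM with OF (0.89, SE 0.13). CD48 changed by 0.72. Without the block 1 of this list was called higher and 1 lower, and without the OF library of culture 2 0 and 1.

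Cytokine and NF-kB genes did not move together. Of 24 NF-kB targets and regulators 1 rose and 4 fell, against 5.17% and 4.58% of all genes. TNF rose from 8.45 and 9.43 CPM to 20.6 and 16.2 CPM (log2 change 1.02, SE 0.17). The subunits RELB and REL had changes of -0.72 (SE 0.12) and -0.78 (SE 0.21), and TRAF1, an NF-kB target, fell from 24.1 and 26.6 CPM to 12.4 and 13.3 CPM (-0.98, SE 0.14). Of 25 cytokines and chemokines 2 rose, TNF and IL16, and 4 fell, CXCL10 (-1.44), TNFSF10 (-0.83), IL2RA (-1.24) and CCL3 (-1.73). IL16, the largest of the rises, had 90.1 and 80.2 CPM with isotype and 207 and 175 CPM with OF (1.17, SE 0.13). In the SOCS, PIM and STAT3 list SOCS3, the feedback inhibitor of JAK signals, rose from 68.9 and 63.9 CPM to 170 and 151 CPM (1.27, SE 0.13, adjusted p = 0.00279), and the list had 4 of 28 higher and 1 lower.

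In the BCL2 family, caspases and death receptors 4 of 30 rose and 3 fell. The genes that fell were BCL2L1, which encodes the survival protein BCL-XL (72.9 and 75.1 CPM to 41.4 and 40.5 CPM, log2 change -0.85, SE 0.12), BIRC2, an inhibitor of apoptosis (-0.85, SE 0.14), and PMAIP1, which encodes the proapoptotic NOXA (-0.77, SE 0.14). The 4 that rose were BIK (1.04), APAF1 (0.68), TNFRSF10A (0.78) and BID (0.71, named after its value was seen), each known to promote cell death. Over all genes 5.17% were called higher and 4.58% lower. Without the block 0 of the list rose and 1 fell, without the OF library of culture 2 1 and 0, without the isotype library of culture 2 2 and 4, and without both 3 and 4.

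The 3 called targets of the aryl hydrocarbon receptor fell, of 8 tested. Over all genes 5.17% were called higher and 4.58% lower, which holds for each list in this paragraph. TIPARP, a repressor of the receptor, went from 212 and 208 CPM to 107 and 98.4 CPM (log2 change -1.03, SE 0.13), like CYP1A1 above, and both were called without the block. CYP1A2 had 1.70 and 1.30 CPM with isotype and 0.594 and 0.306 CPM with OF. In the glycolysis and hypoxia list 5 of 28 rose and 1 fell. The glucose carrier SLC2A3 had 2.25 and 2.04 CPM with isotype and 7.85 and 6.25 CPM with OF (1.71, SE 0.23), HK2, which traps glucose in the cell, had 65.8 and 118 CPM with isotype and 166 and 207 CPM with OF (1.04, SE 0.21), and VEGFA rose by 0.89. CIITA, the master factor of MHC class II, was the 1 called gene of 25 in antigen presentation, a count near the share of all genes. It had 53.3 and 103 CPM with isotype and 140 and 206 CPM with OF (1.18, SE 0.17). PRDM1, the plasma cell factor, rose from 66.8 and 111 CPM to 146 and 220 CPM (1.05, SE 0.17) and IRF8, a germinal centre factor, fell from 41.2 and 38.2 CPM to 22.7 and 24.7 CPM (-0.75, SE 0.16). In CIITA and PRDM1 culture 2 was higher than culture 1 under both antibodies. In the fit over the 6 TMD8 libraries with the block, edgeR called no gene among 32 proteasome subunits, 36 nuclear respiratory chain subunits or 17 Notch and Deltex genes, whose medians were -0.12, -0.05 and -0.08, and DESeq2 without the block called none either. Without the isotype library of culture 2, 3 Notch and Deltex genes were called higher and 2 respiratory chain genes lower, and 1 respiratory chain gene was called higher after the GC correction and 1 lower with scaling by library size alone. Without both libraries of culture 2, 1 proteasome gene and 2 Notch and Deltex genes were called higher and 1 respiratory chain gene lower.

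**Figure D3:**
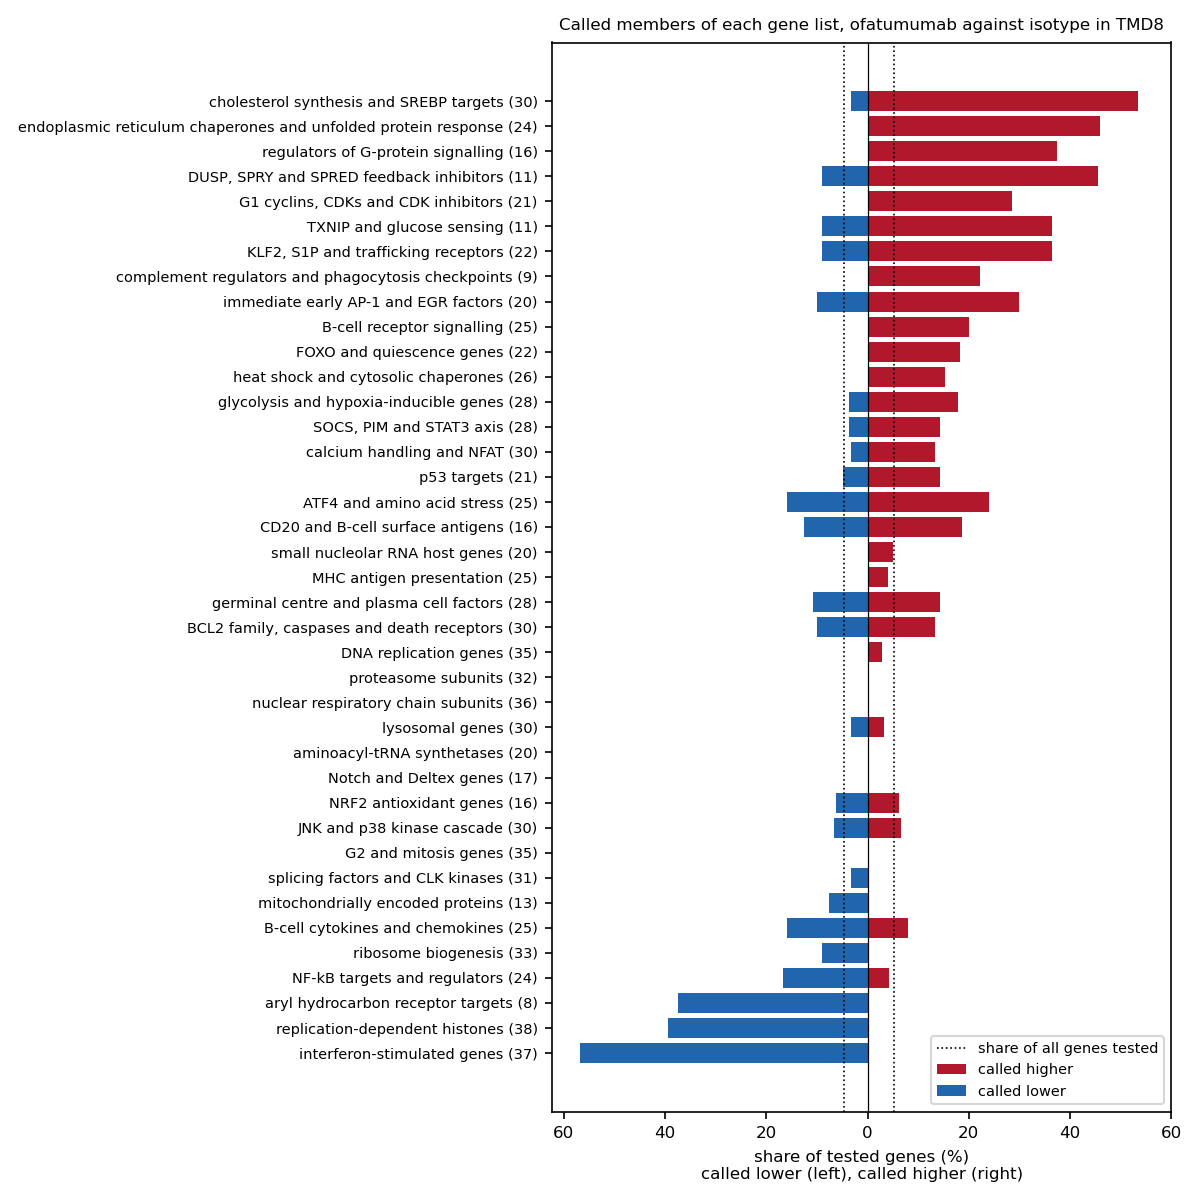
Share of the tested members of each gene list that were called higher (red, to the right) or lower (blue, to the left) with OF against isotype in TMD8, in percent, with the number tested in parentheses and dotted lines at the shares of all genes tested, 5.17% and 4.58%. The cholesterol list reaches furthest to the right, followed by the ER chaperone and DUSP, SPRY and SPRED lists, and the interferon-stimulated and histone lists reach furthest to the left. Lists with fewer than 5 genes tested and the marker lists are not drawn.

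The comparison with R asked which of these changes were particular to OF. No gene of 14227 (0%) was called between OF and R in TMD8 by edgeR with the replicate block, where the smallest adjusted p was 0.269 and 2492 genes had an unadjusted p under 0.05. DESeq2 with the block called 48 genes higher and 2 lower, and no call was made by edgeR without it (582 genes under 0.05 unadjusted) or after the GC correction (1005 genes). The number of calls rested on single libraries. Without the R library of culture 1 there were 1651 higher and 862 lower and without that of culture 2 112 and 99, without the OF library of culture 1 or 2 1 and 1 or 0 and 0, and without the isotype library of culture 1 or 2 399 and 19 or 374 and 24. Both antibodies were set against the same isotype libraries, and their values stand side by side here. The 12 leading higher genes had log2 changes of 0.79 to 2.63 with R against isotype and differences of OF minus R of -0.28 to 0.59, and the 12 leading lower genes changes of -1.80 to -0.91 and differences of -0.33 to 0.25. DUSP2 had the largest of these differences (0.59, adjusted p = 0.269), with a change of 1.38 with OF and 0.79 with R. EGR1 and KLF2 were called with OF and had changes of 0.02 and 0.11 with R, and their differences were 0.98 and 0.79, neither of them called. The median of the interferon-stimulated list was -0.75 with OF and -0.57 with R, that of the cholesterol list 0.63 and 0.45, and that of the ER chaperone list 0.41 and 0.50. Of the 40 lists, the mitochondrially encoded proteins had the medians furthest apart (0.27 with OF and 0.76 with R). Others were the immediate early list (0.43 and 0.10) and the DUSP, SPRY and SPRED list (0.32 and 0.04). The G2 and mitosis list had -0.15 and 0.13, and the proteasome list -0.12 and 0.13. The DUSP, SPRY and SPRED median with OF was 0.61 in culture 1 and 0.07 in culture 2. From lowest to highest GC decile, R libraries shifted by -0.46 and -0.19 (log2) and OF libraries by 0.05 and 0.49. The G2 and mitosis genes had a median GC content of 43.2%, and their OF median was -0.07 after the GC correction. These differences of medians were not tested.

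The last comparison asked whether TMD8 answered OF as U2932 did. U2932 was treated in the same way, and its response was subtracted from that of TMD8 in a fit over all 12 libraries. Of 16187 genes tested 179 (1.11%) had a higher and 175 (1.08%) a lower response in TMD8. Genes called higher in TMD8 had a median log2 change of 0.40 in U2932, where 637 of the 735 lay above 0, and genes called lower a median of -0.44, where 528 of the 652 lay below 0. Among the 735 and 652 genes, which were picked by their change in the same TMD8 libraries, the difference was called for 89 and 97. These calls needed the block, without which 8 genes were higher and 9 lower, and all U2932 libraries: without the OF library of culture 1 or 2 9 and 8 or 8 and 8 were left, and without the isotype library of culture 1 or 2 5 and 2 or 0 and 1. Without TMD8 libraries the numbers were 11 and 11 (OF, culture 1), 11 and 8 (OF, culture 2), 107 and 113 (isotype, culture 1) and 317 and 360 (isotype, culture 2).

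**Figure D4:**
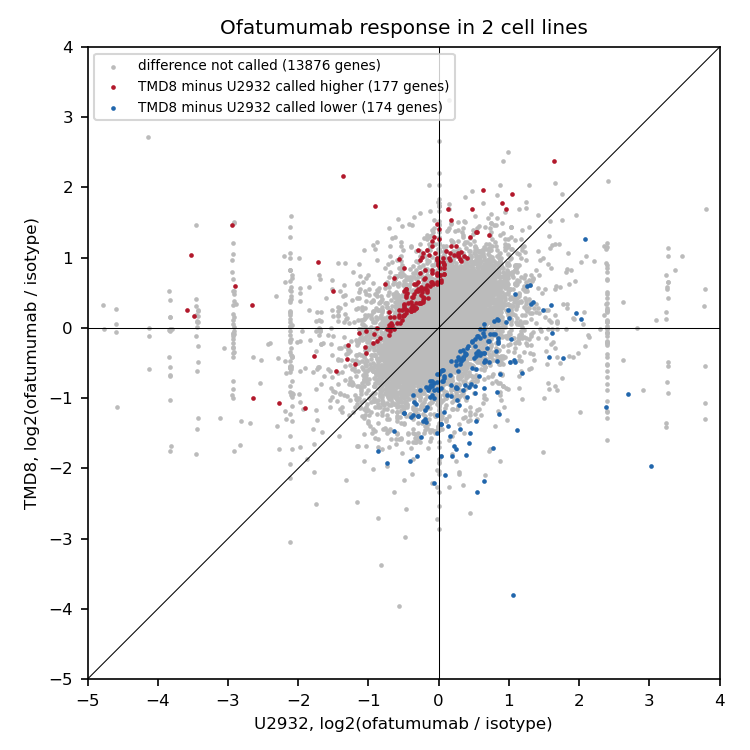
Log2 change between OF and isotype in U2932 (x axis) and TMD8 (y axis) for the genes tested in TMD8, from 1 fit over 12 libraries. Genes whose difference between the lines was called are red (177, higher in TMD8) or blue (174, lower), and the diagonal marks equal change, with 12 genes outside the axes. Columns of points at single x values are genes with hardly any counts in U2932.

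HSPA5 and XBP1 of the ER chaperone list were among the genes with the smallest adjusted p for the difference. HSPA5 had 950 and 1010 CPM with isotype and 1130 and 1100 CPM with OF in U2932, a log2 change of 0.18 against 1.53 in TMD8, and the difference was 1.35 (SE 0.15, adjusted p = 0.00338). XBP1 had 476 and 520 CPM with isotype and 419 and 400 CPM with OF in U2932, a difference of 1.40 (SE 0.16, adjusted p = 0.00338). In both genes U2932 without OF was already above the level that TMD8 reached with it. Over the list 4 of 24 genes had a higher response in TMD8 and 0 a lower one, and the medians were 0.41 in TMD8 and 0.03 in U2932. Interferon-stimulated genes differed the other way, with 10 of 37 lower in TMD8 and 0 higher, and medians of -0.75 and 0.00. In U2932 18 of them lay above 0 and 18 below. The list was kept by counts in TMD8, so its U2932 median can include genes hardly measured there. IFI44L had too few counts in U2932 to pass the filter there, and its difference of -2.46 (SE 0.82) was not called. IFIH1 had 14.7 and 15.6 CPM with isotype and 14.7 and 15.2 CPM with OF in U2932, a difference of -1.22 (SE 0.16, adjusted p = 0.0052). OAS2 had 20.2 and 20.0 CPM with isotype and 23.0 and 25.4 CPM with OF, a difference of -1.28 (SE 0.16), so these genes stood lower in U2932 from the start. In the cholesterol list 2 of 30 genes had a higher response in TMD8, HMGCS1 (0.73) among them, and the medians were 0.63 and 0.50. In the histone list 4 of 38 had a higher, that is less negative, response in TMD8, and the medians were -0.60 and -1.18.

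**Figure D5:**
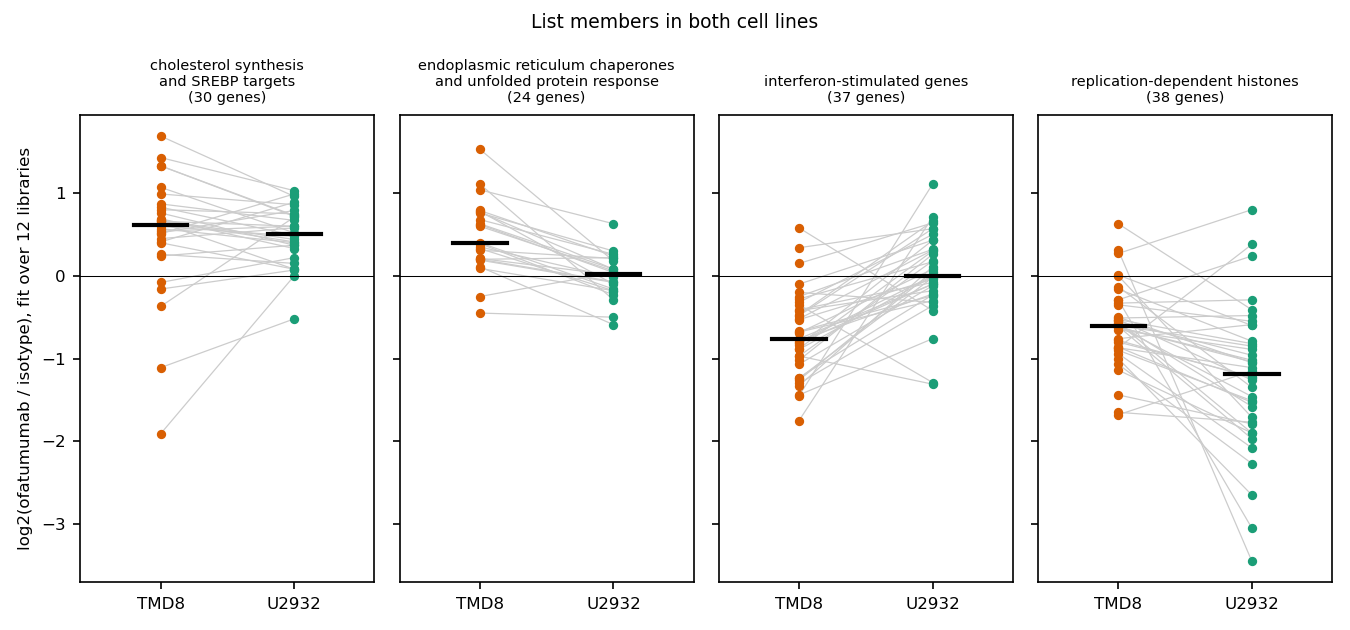
Log2 change between OF and isotype of the tested members of 4 gene lists in TMD8 (orange) and U2932 (green), from 1 fit over 12 libraries. Each grey line joins 1 gene in both lines, and black bars are medians. Members of the ER chaperone list lie mostly above 0 in TMD8 and around 0 in U2932, and interferon-stimulated genes mostly below 0 in TMD8 and around 0 in U2932.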

How the data were processed

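RNA sequencing was done on 12 libraries, of which the 4 OF and isotype libraries of TMD8 are described. Per the labels, cells received 20 µg/mL of antibody. The authors trimmed reads with Trim Galore 0.6.0 and aligned them with STAR 2.7.0e to GRCh38 (submitters' processing notes), and deposited raw counts per gene. The annotation release and strand setting are not given in the sources used here. The submitters' notes also name DESeq2 1.26.0, whose results were not used here.

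Gene symbols and positions were taken from GENCODE 29, and 42371 of 58884 genes had a symbol. Genes were kept by filterByExpr (minimum count 10), scaled by TMM and tested with edgeR 4.0.16 (R 4.3.3, quasi-likelihood test) over the 6 TMD8 libraries, with group and culture as terms. The culture was used as a block because the line was split into separately grown cultures before treatment and same-numbered libraries deviated together in every pair (correlations 0.69, 0.22 and 0.23 over 14227 genes). The count of calls without the replicate block was 67 higher and 49 lower. Calls needed an adjusted p (Benjamini-Hochberg) under 0.1 and a 1.5-fold change. CPM are counts scaled to the TMM library size, not per length, and are not compared between genes. Differences between TMD8 and U2932 were tested over all 12 libraries with culture nested in line. DESeq2 1.42.0, other scalings, filters and corrections, and fits without single libraries were alternatives.

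In counts simulated for the comparison of OF with isotype over 13923 genes, 158 of 195 genes changed 2-fold were recovered (81%), and 25 of 183 calls were false (13.7%). For the difference between lines, 143 of 196 genes changed 4-fold were recovered (73%) over 15853 genes, and 19 of 162 calls were false (11.7%).

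Named genes were the 12 with the smallest p per direction, the 5 largest changes per direction at a mean of at least 5 CPM, up to 6 called members per list (2 highly expressed ones where none was called), MS4A1, and up to 10 genes of the difference between lines. The members and lists were chosen with earlier results of these data known. Promoter windows matched 554 of the 735 genes called higher and 472 of the 652 called lower. The ER stress, sterol and interferon motifs were added after values were known. Some of the genes that the rule named are not reported here.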

Additional observations from a re-analysis of the deposited data

Results flagged for a closer look

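By edgeR's quasi-likelihood test of the interaction, 54 of the genes named had a response to OF that differed between TMD8 and U2932. Of these 32 were higher and 22 lower in TMD8. Genes were mainly named for their change in the same TMD8 libraries or for this difference itself, so the count says nothing about genes at large. Over all 16187 genes tested the response was called higher in TMD8 for 1.11% and lower for 1.08%. The values are log2 changes in TMD8 minus log2 changes in U2932. Signalling, transcription, metabolic and surface genes with a higher response in TMD8 were TRPM4 (3.50), DENND3 (2.66), KDM7A (2.04), YES1 (1.54), SPRED2 (1.29), UGDH (1.27), KLF6 (1.26), TNF (1.25) and SLC2A3 (1.24). Smaller differences in the same direction were found for the adhesion, cytokine and early response genes ITGA4 (0.94), ITGB1 (0.67), IL16 (0.91), IER2 (0.90), ZFP36 (0.80), CDK5R1 (0.88), SGK1 (0.88), DUSP5 (0.76), RGS14 (0.83), RGS13 (0.74) and JAK1 (0.62). Cell death, cell cycle and differentiation genes higher in TMD8 were BIK (0.81), TNFRSF10A (0.81), CCNE2 (0.80), CCNG2 (0.74) and PRDM1 (0.77). Of the ER chaperones, sterol enzymes and histones, those higher in TMD8 were XBP1 (1.40), HSPA5 (1.35), DNAJB11 (0.88), DNAJC3 (0.69), HMGCS1 (0.73), H2BC8 (1.20) and H2AC6 (0.76). Interferon and Schlafen genes with a lower response in TMD8 were SLFN5 (-1.49), TNFSF10 (-1.35), OAS2 (-1.28) and IFIH1 (-1.22). Surface, cytokine, signalling, NF-kB and cell death or survival genes lower in TMD8 were CCL3 (-1.98), CCR7 (-1.20), CD86 (-1.16), CXCR5 (-0.96), CNR1 (-0.88), TRAF1 (-0.87), SOCS3 (-0.81), RELB (-0.80), BCL2L1 (-0.72), PMAIP1 (-0.72) and CD80 (-0.62). Stress, carrier, zinc finger and other genes lower in TMD8 were VLDLR (-3.64), SLC7A11 (-1.82), C12orf60 (-1.19), ZBTB43 (-0.88), ZNF543 (-0.88), HSPH1 (-0.69) and ATF5 (-0.67).

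These calls needed the replicate block and rested on single libraries, as the number of interaction calls over all genes was 8 higher and 9 lower without the block and 0 and 1 without the U2932 isotype library of culture 2. TRPM4 had 0.0591 to 0.799 CPM and VLDLR 0.188 to 2.30 CPM in the U2932 libraries. H2BC8 and H2AC6 are near-identical to other histone genes and are uncertain. No group had 4 or more samples, so single samples were not tested for distance from the others.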

How the results depend on the processing

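Against 735 genes called higher and 652 lower with OF, other settings gave 67 and 49 without the replicate block, 342 and 248 by DESeq2 without the block, 225 and 247 at a 2-fold limit, and 1015 and 1003 with only the 4 libraries compared. Those 4 libraries without the block gave 0 and 0 by edgeR (1305 genes at an unadjusted p under 0.05), and the cause was not tested. Leaving out each TMD8 library in turn gave 195 to 1063 higher and 138 to 1006 lower. Counts under the other scalings, filters, GC and length corrections, all 12 libraries and DESeq2 with the block stayed within 1.5 times of the main counts. All 1387 genes kept their sign wherever they were tested, which their choice from these same libraries favors.

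For OF against R (0 and 0), DESeq2 with the block gave 48 higher and 2 lower, no filter 384 and 37, and leaving out single libraries 0 to 1651 higher and 0 to 862 lower. For the difference between the lines (179 and 175), 8 and 9 were left without the block, and leaving out single libraries gave 0 to 317 higher and 1 to 360 lower. The cause of these shifts was not tested.

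Sign changes were limited to 11 values of 6 named genes, none of them called. Leaving out single libraries gave -0.16 to 0.05 for KARS1 (above 0 without OF 2, at 0.03, and isotype 1), -0.05 to 0.39 for MKI67 (below 0 without OF 2), -0.26 to 0.19 for PSMA7 (above 0 without OF 2, at 0.04, and isotype 1), -0.06 to 0.11 for ATP5F1B (below 0 without OF 1 and, at -0.05, isotype 2), -0.04 to 0.21 for ATP5F1A (below 0 without OF 1, at -0.03, and isotype 2) and -0.29 to 0.64 for VCAN (below 0 without isotype 1), where 1 and 2 are the cultures. By library size only ATP5F1B was at -0.05. At these depths the median standard error of a log2 change was 0.17, which limits what can be called at small changes.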

Other observations

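Genes of calcium handling, outside the comparisons above, had 4 of 30 members higher and 1 lower with OF. Over all genes the shares were 5.17% and 4.58%. ITPR3, a calcium release channel of the ER, had 20.5 and 47.6 CPM with isotype and 46.7 and 99.2 CPM with OF (log2 change 1.11, SE 0.23), and ATP2A2, the pump that refills the ER, had 169 and 288 CPM with isotype and 321 and 434 CPM with OF (0.74, SE 0.19). In ITPR3 the groups overlapped across cultures, since culture 2 was higher under both antibodies. KCNMB4, a subunit of a calcium-activated potassium channel, fell from 18 and 14.5 CPM to 7.98 and 7.29 CPM (-1.08, SE 0.17), whereas KCNN4 rose.

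Of 33 ribosome biogenesis genes 0 rose and 3 fell, against 5.17% and 4.58% of all genes. Without the block none of the 33 was called, by edgeR or by DESeq2. NOP56, a core protein of the particles that modify ribosomal RNA, fell from 819 and 585 CPM to 495 and 369 CPM (log2 change -0.70, SE 0.16), and POLR1C, a subunit of RNA polymerases I and III, from 182 and 121 CPM to 114 and 76.1 CPM (-0.67, SE 0.14). MYC, which is known to drive such genes, rose. SNHG16, a host gene of small nucleolar RNAs, rose from 62.6 and 50.0 CPM to 117 and 101 CPM (0.96, SE 0.12), the 1 called gene of 20 in its list. Of the kinases of cytokine receptors, JAK1 rose from 131 and 143 CPM to 216 CPM in both OF libraries (0.66, SE 0.13) and JAK3 had 28.7 and 57.0 CPM with isotype and 53.2 and 94.4 CPM with OF (0.80, SE 0.20).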
